A study of Mus musculus with 48 samples.

Results

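The 4 genes described here are *Mt1* and *Mt2*, the metallothioneins most widely expressed in mouse tissues, *Mtf1*, which encodes the metal-responsive transcription factor that drives them, and *Slc39a14*, which encodes the zinc importer ZIP14. They were taken by symbol from the 56748 genes of the deposited tables and followed across genotype, tumor, and circadian time in tibialis anterior (TA) muscle, a fast hind-limb muscle of the mouse. RNA-seq libraries came from 48 male mice, of 39 to 55 weeks by the study's methods. The study's section on limitations gives a younger age for them, so the age is not settled. The tumor-bearing group (KPC) had received cells of a murine pancreatic cancer line in the pancreas, and the control group had received the vehicle alone. Muscles were taken in constant darkness at circadian time (CT) 18, 22, 26, 30, 34, or 38 h, from 2 mice of each genotype and condition at each time, which makes 12 mice of each genotype and condition. FoxP1SkmKO mice carried homozygous floxed *Foxp1* alleles and a Cre transgene driven by the ACTA1 promoter, so recombination was aimed at muscle fibers and not at the other cells of the tissue. WT mice are labelled C57BL/6J in the sample records, whereas the series design describes them as floxed animals lacking Cre, so whether the groups also differed in the floxed allele cannot be told apart from the records.

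Each library had between 14480867 and 20787784 reads counted on genes (median 16602092). The genotypes are used as labelled, and *Foxp1* reads over the whole gene in whole muscle did not pass the test between them. Its log2 fold change between FoxP1SkmKO and WT mice was -0.11 in control mice (adjusted p = 0.459, by the quasi-likelihood test of edgeR and the Benjamini-Hochberg method) and -0.20 in KPC mice (adjusted p = 0.246). The 7 markers of muscle fibers were read in every group, with summed levels of 120611.3 to 151439.2 CPM, which is a count scaled to library size alone. The 6 hepatocyte markers summed to 366.6 CPM in 1 FoxP1SkmKO KPC mouse at CT18 and to 110.2 CPM in 1 FoxP1SkmKO control mouse at CT22, and to at most 15.7 CPM in the other libraries. Averaged over times, 2 of 5 neutrophil markers could be tested and both were higher in WT KPC than WT control mice, with summed levels of 0.5 to 2.1 CPM against 0.1 to 0.8 CPM. Of 4 fibroblast markers, *Col1a1* was lower in WT KPC mice (log2 fold change -0.91) and *Lum* in FoxP1SkmKO KPC mice (-0.79). The summed fibroblast level had a median of 229.2 CPM in WT control and 137.8 CPM in WT KPC mice, and of 211.6 and 120.7 CPM in FoxP1SkmKO control and KPC mice. Of 5 endothelial markers, *Kdr* was lower in WT KPC mice (-0.27), and of the fiber markers, *Tnnt3* was lower in FoxP1SkmKO than WT control mice (-0.14). In whole muscle, fewer cells of a type and less RNA per cell cannot be told apart.

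Metallothioneins are small cysteine-rich proteins that bind zinc, copper, and cadmium. When free zinc rises in a cell, the zinc-finger protein MTF-1 moves to metal response elements (MREs) in the promoters of the metallothionein genes and of zinc exporter genes and turns them on. Glucocorticoids also induce metallothioneins, as do interleukin-6 (IL-6) and oxidants. ZIP14 sits in the plasma membrane and carries zinc, manganese, and non-transferrin-bound iron into the cell, and it is known from liver as an acute-phase gene induced by IL-6. In other mouse models of cancer, ZIP14 has been linked to zinc loading and wasting of muscle.

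MRE cores of the forms TGCACNC and TGCGCNC, where N is any base, were searched for on both strands. The search covered the 250 bases before the start codon of each gene (GRCm39, GENCODE annotation). The window of *Mt1*, chr8:94905689-94905938, held 5 cores, and 0.0554% of 21669 protein-coding genes held as many or more in the same span. The window of *Mt2*, chr8:94899226-94899475, held 4 cores, a number reached by 0.314% of genes. The windows of *Mtf1* (chr4:124698254-124698503) and *Slc39a14* (chr14:70556375-70556624) held none of these letters, whereas 22.4% of genes held at least 1. These windows are not the promoters of the latter 2 genes. They begin 2357 bases after the annotated start of *Mtf1* and 32250 bases after that of *Slc39a14*, whereas those of *Mt1* and *Mt2* take in the annotated start itself. The absence of cores there therefore says nothing of the promoters of *Mtf1* and *Slc39a14*. The shares of genes given above are likewise over windows before start codons and not over promoters. In *Mt1* and in *Mt2*, only the first core printed below lies before the annotated start. The sites of the metallothioneins are printed because MTF-1 is known to act on these genes through sequences of this kind. Each is shown with 10 bases on either side, read 5′ to 3′ on the strand that carries the core, with the core in capitals. The cores shared no base, although the flanks of neighbouring sites overlap in places. A match is a description of the sequence and says nothing of binding.
Mt1 site 1 (chr8:94905684-94905710, plus strand): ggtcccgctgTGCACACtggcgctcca
Mt1 site 2 (chr8:94905709-94905735, plus strand): cagggagctcTGCACTCcgcccgaaaa
Mt1 site 3 (chr8:94905727-94905753, plus strand): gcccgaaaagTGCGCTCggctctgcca
Mt1 site 4 (chr8:94905791-94905817, minus strand): gcaaagggttTGCACCCagcaggcggt
Mt1 site 5 (chr8:94905805-94905831, plus strand): gcaaacccttTGCGCCCggactcgtcc
Mt2 site 1 (chr8:94899240-94899266, minus strand): cccctgggccTGCGCACgacccgaatt
Mt2 site 2 (chr8:94899294-94899320, minus strand): ccccgccgccTGCACACgccctttttc
Mt2 site 3 (chr8:94899313-94899339, minus strand): gaaggcaccaTGCACGCgcccccgccg
Mt2 site 4 (chr8:94899347-94899373, plus strand): gcggagctttTGCGCTCgacccaatac

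*Mt1* was read in every library and *Mt2* in few. *Mt1* (ENSMUSG00000031765; chr8:94905710-94906955 of mm39, plus strand) had 43 to 175 reads per library and a level of 4.34 ± 1.24 FPKM (SD, n = 48), where FPKM is a count scaled to gene length and library size. Its mean level was above that of 67.1% of the 15637 genes that passed the filter on low counts. *Mt2* (ENSMUSG00000031762; chr8:94899292-94900196, plus strand) had 25 reads in all 48 libraries together. It was listed at 0 in 36 libraries and at 5 reads at most in the others. The 2 libraries with 5 *Mt2* reads came from a WT KPC mouse at CT38, which also had the highest *Mt1* level of all (7.51 FPKM), and a FoxP1SkmKO control mouse at CT18, with 6.34 FPKM of *Mt1*. With counts this low, whether the 2 metallothioneins varied together cannot be told. *Mt2* failed the filter, so 3 of the 4 genes were tested. No comparison of *Mt2* between groups, nor of its ratio to *Mt1*, is given.

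The annotation bears on the 2 levels differently. An antisense gene of 1 exon, *Gm45774* (chr8:94897376-94900040, minus strand), covers 749 bases of *Mt2*, or 82.8% of its span, and had 38 reads over the 48 libraries. The library protocol describes a second-strand synthesis that keeps the strand and one that does not, without saying which was used. Whether counting used the strand is not given in the sources used here, and without strand, reads from a gene and its antisense partner cannot be told apart. Among 27 protein-coding genes covered over at least 50% of their span by a 1-exon gene of the other strand, 66.7% had a mean of under 1 read per library, against 33.0% of 21943 other protein-coding genes. The part of this overlap in the low *Mt2* count was not tested. Among 32-base pieces of the spliced transcripts, 0 of 731 from *Mt1* and 22 of 717 from *Mt2* stood at more than 1 place in the genome, and none was shared by both genes. The deposited length of *Mt1* is 1246 bases, its whole span with introns, so the FPKM of *Mt1* is per 1246 bases and not per length of spliced RNA.

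*Mtf1* and *Slc39a14* were read steadily. *Mtf1* (ENSMUSG00000028890; chr4:124695897-124743593, plus strand) had 330 to 637 reads per library and 2.85 ± 0.27 FPKM (SD, n = 48). It shares 721 bases at its 3′ end with *1110065P20Rik* of the other strand. *Slc39a14* (ENSMUSG00000022094; chr14:70540918-70588874, minus strand) had 182 to 367 reads and 1.34 ± 0.16 FPKM. The coefficient of variation over the 48 mice was 28.6% for *Mt1*, 9.46% for *Mtf1*, and 11.9% for *Slc39a14*, so *Mt1* varied most between mice in FPKM. Among 24 zinc transporter genes, *Slc39a14* ranked the 12th by mean FPKM. The plasma-membrane importer *Slc39a1* stood first at 17.0 FPKM, and 13 of the 24 had at least 1 FPKM.

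*Mt1* levels overlapped among all 4 genotype and condition groups. In WT control mice, *Mt1* ran from 3.04 to 5.90 FPKM with a median of 3.39, and its mean was 3.72 ± 0.80 (SD, n = 12). In WT KPC mice it ran from 2.33 to 7.51 with a median of 3.98 (4.18 ± 1.42). In FoxP1SkmKO control mice it ran from 3.28 to 7.09 with a median of 4.37 (4.60 ± 1.16), and in FoxP1SkmKO KPC mice from 2.69 to 6.90 with a median of 4.67 (4.87 ± 1.32). Neighbours in this order differed by less than 1 SD of either group. *Mtf1* followed the same order, with 2.65 ± 0.28 FPKM in WT control mice (2.00 to 2.93, median 2.74) and 2.85 ± 0.27 in WT KPC mice (2.28 to 3.37, median 2.85). In FoxP1SkmKO mice it had 2.90 ± 0.24 in controls (2.61 to 3.48, median 2.83) and 3.02 ± 0.17 with KPC tumors (2.79 to 3.34, median 3.0). The lowest values of *Mtf1* thus lay in WT control mice, where 2 libraries stood below all others. *Slc39a14* had 1.31 ± 0.16 FPKM in WT control mice (1.03 to 1.51, median 1.35), 1.32 ± 0.13 in FoxP1SkmKO control mice (1.07 to 1.61, median 1.34), 1.34 ± 0.14 in FoxP1SkmKO KPC mice (1.12 to 1.54, median 1.35), and 1.4 ± 0.21 in WT KPC mice (1.07 to 1.83, median 1.37). All 4 groups of *Slc39a14* overlapped.

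**Figure D1:**
FPKM (y axis) of each gene by circadian time in hours (x axis, points shifted sideways by group), with 1 point per mouse and lines through the mean of 2 mice. *Mt2* was at 0 in 36 of 48 libraries, and the 2 WT control mice at CT26 had the lowest *Mtf1* levels, 2.00 and 2.25 FPKM.

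To ask whether pancreatic tumors changed these genes, each genotype's KPC mice were set against its controls, averaged over the 6 times with equal weight. None of the 3 genes tested passed an adjusted p under 0.05 in either genotype. In WT mice, where 1.79% of all genes passed, the log2 fold change (KPC minus control) of *Mt1* was 0.14 (95% interval -0.14 to 0.42, adjusted p = 0.682) and that of *Slc39a14* was 0.10 (-0.04 to 0.24, adjusted p = 0.542). *Mtf1* differed by 0.10 (0.02 to 0.19), with an unadjusted p of 0.0234 and an adjusted p of 0.236 in edgeR. The intervals leave room for a change of *Mt1* of up to 1.34-fold higher and of *Slc39a14* of up to 1.18-fold higher. Without CT26, the *Mtf1* difference in WT mice was 0.04 (adjusted p = 0.835) and that of *Mt1* was 0.29 (adjusted p = 0.431).

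In FoxP1SkmKO mice, 0.428% of all genes passed. The log2 fold change of *Mt1* was 0.07 (95% interval -0.20 to 0.34, adjusted p = 0.882, edgeR), that of *Mtf1* was 0.06 (-0.03 to 0.15, adjusted p = 0.619), and that of *Slc39a14* was 0.01 (-0.13 to 0.16, adjusted p = 0.963). The difference of the KPC effect between WT and FoxP1SkmKO mice was 0.07 for *Mt1*, 0.04 for *Mtf1*, and 0.08 for *Slc39a14*, with adjusted p-values of 0.974, 0.935, and 0.923. No gene of the 15637 passed for that difference in edgeR (0%) or in DESeq2, although 1020 had an unadjusted p under 0.05 in edgeR. A response of these genes particular to 1 genotype was therefore not detected.

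Comparing the genotypes gave somewhat higher levels of *Mt1* and *Mtf1* in FoxP1SkmKO mice, which did not pass the adjustment. In control mice, where 3.44% of genes passed, the log2 fold change (FoxP1SkmKO minus WT) was 0.31 for *Mt1* (95% interval 0.03 to 0.58, unadjusted p = 0.0303, adjusted p = 0.227, edgeR) and 0.13 for *Mtf1* (0.04 to 0.22, unadjusted p = 0.00602, adjusted p = 0.0984). *Slc39a14* differed by 0.02 (-0.13 to 0.16, adjusted p = 0.944). Without CT26, the *Mtf1* difference was 0.05 (adjusted p = 0.732), and that of *Mt1* was 0.45 (adjusted p = 0.105). In KPC mice, where 0.32% of genes passed, the differences were 0.24 for *Mt1* (adjusted p = 0.531), 0.09 for *Mtf1* (adjusted p = 0.489), and -0.07 for *Slc39a14* (adjusted p = 0.778). The 2 libraries with hepatocyte markers are both from FoxP1SkmKO mice and had 6.90 and 5.17 FPKM of *Mt1*, a gene that liver expresses highly. Without them, the *Mt1* difference was 0.25 in control mice (adjusted p = 0.379) and 0.19 in KPC mice (adjusted p = 0.644).

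**Figure D2:**
Log2 fold changes (x axis) of *Mt1*, *Mtf1*, and *Slc39a14* with 95% intervals, for 4 averaged comparisons and for WT mice at CT26 alone. The 1 red interval, *Mtf1* in WT mice at CT26 (0.44), is the only one of those drawn that passed the adjusted p.

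Across the 12 comparisons of KPC and control mice at single times (2 against 2 mice each, 36 tests of these genes), 1 passed. At CT26, *Mtf1* had 2.00 and 2.25 FPKM in the WT control mice and 3.0 and 2.78 FPKM in the WT KPC mice. The groups did not overlap, and the controls were the 2 lowest of the 48 libraries. The log2 fold change was 0.44 (standard error 0.11, adjusted p = 0.0119, edgeR's quasi-likelihood test), or 1.35-fold (95% interval 1.16 to 1.58), in a comparison in which 7.17% of all genes passed. Among cell type markers, the fiber genes *Myh4* (0.36) and *Pvalb* (-0.40) and the adipocyte gene *Fabp4* (-0.47) passed there too, and their part in the *Mtf1* difference was not tested. In FoxP1SkmKO mice at CT26, *Mtf1* had 2.97 and 3.19 FPKM in controls and 2.89 and 3.16 FPKM in KPC mice, a log2 fold change of -0.03 (adjusted p = 0.949). The difference between the genotypes at CT26, a comparison added after the data were seen, was 0.47 (unadjusted p = 0.00426, adjusted p = 0.192). It is not called, and 0.345% of genes passed there.

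The *Mtf1* difference at CT26 lay with the controls, by comparisons at CT26 that were added after the data were seen. Those of WT control mice reuse the same CT26 libraries, so they describe the difference and are not independent support for it. Within WT control mice, *Mtf1* at CT26 was lower than the mean of the other 5 times by 0.37 on the log2 scale (log2 difference -0.37, adjusted p = 0.00188, edgeR), as 23.4% of all genes differed there. Within WT KPC mice it differed by 0.03 (adjusted p = 0.943), in a comparison where 0.799% of genes passed. Against FoxP1SkmKO control mice at CT26, *Mtf1* in WT control mice was lower too, with a log2 fold change (FoxP1SkmKO minus WT) of 0.53 (adjusted p = 0.00256), where 6.03% of genes passed. The F test of any difference between times in WT control mice also passed for *Mtf1* (adjusted p = 0.0417), as it did for 18.7% of all genes.

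The 2 WT control libraries at CT26 stood apart by gene length. In each library, the median deviation of log2 CPM from the mean of all libraries was taken over the 3127 longest genes tested (at least 7194 bases) and over the shortest genes (at most 2001 bases). Longest minus shortest was -0.475 and -0.327 in these 2 libraries, the lowest of all, and -0.243 to 0.217 in the other 46. *Mtf1*, at 8907 bases, and *Slc39a14*, at 10550 bases, are long by this measure and *Mt1* is short. *Slc39a14* was lowest at the same place, with 1.03 and 1.16 FPKM in WT control mice at CT26 against 1.33 and 1.52 FPKM in WT KPC mice (log2 fold change 0.38, adjusted p = 0.197, edgeR). *Mt1* lay the other way, with 3.90 and 5.90 FPKM in the controls against 4.07 and 2.33 FPKM in KPC mice (log2 fold change -0.62, adjusted p = 0.299). After each library's trend on gene length was removed, the KPC effect at CT26 was 0.27 for *Mtf1* (adjusted p = 0.164), 0.17 for *Slc39a14* (adjusted p = 0.690), and -0.44 for *Mt1* (adjusted p = 0.570), and 403 genes passed in place of 1121. *Mtf1* then no longer differed between CT26 and the other times in WT control mice (log2 difference -0.17, adjusted p = 0.156). Its difference from FoxP1SkmKO control mice at CT26 was 0.38 and still passed (adjusted p = 0.0332), where 385 genes passed in place of 943. What set these 2 libraries apart was not tested, and library and circadian time cannot be told apart within 1 group of 2 mice.

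**Figure D3:**
Log2 CPM of each gene (y axis) against the length trend of its library (x axis, median log2 CPM deviation of the longest minus the shortest genes), 1 point per library. The 2 WT control mice at CT26 (blue) have the lowest trend, -0.475 and -0.327, and the lowest *Mtf1*, whereas the WT KPC mice at CT26 (red) lie among the other libraries.

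Without WT control mouse 1 at CT26, the *Mtf1* difference there was 0.34 (adjusted p = 0.294, edgeR), and without WT KPC mouse 1 it was 0.36 (adjusted p = 0.139). The largest single-time difference of *Mt1* in WT mice was at CT38, where controls had 3.36 and 4.44 FPKM and KPC mice had 4.93 and 7.51 FPKM (log2 fold change 0.68, unadjusted p = 0.0442, adjusted p = 0.494). In FoxP1SkmKO mice at CT38, *Mt1* had 3.80 and 7.09 FPKM in controls and 6.15 and 6.43 FPKM in KPC mice (0.20, adjusted p = 0.912). In 2 of these 4 groups the mice differed from each other by more than the KPC and control means of their genotype did.

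Rhythmicity was then asked for each gene in each group of 12 mice with a sinusoid of 24 h, called at an unadjusted p under 0.01. None of the 3 genes was called in any group. The share of all genes called was 4.92% in WT control, 4.22% in WT KPC, 4.07% in FoxP1SkmKO control, and 2.63% in FoxP1SkmKO KPC mice. The lowest p among these genes was 0.0238, for *Mt1* in FoxP1SkmKO KPC mice, with a fitted amplitude of 1.34 FPKM (27.5% of its mean) and a peak at CT39.7. *Mt1* had fitted peaks at CT40.0 in WT KPC mice (p = 0.149), CT39.0 in FoxP1SkmKO control mice (p = 0.256), and CT26.4 in WT control mice (p = 0.574; n = 12 each). For the difference in rhythm between KPC and control mice, *Mt1* had p = 0.0853 and *Mtf1* p = 0.0737 in WT mice (n = 24), where 5.07% of genes had a p under 0.05. In FoxP1SkmKO mice, where 5.09% did, the p-values of the 3 genes were 0.543 to 0.636.

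A single sinusoid shared by all 48 mice, with a mean level for each genotype and condition, was fitted after these results were seen. *Mt1* had an amplitude of 0.73 FPKM, 16.7% of its mean, and a peak at CT39.8 (p = 0.00923, adjusted p = 0.0660, F test, n = 48). The fit gave 4751 of 33218 genes (14.3%) a p under 0.01. Group means of *Mt1* were highest at CT38 in 3 of the 4 groups, at 6.22 ± 1.82 FPKM in WT KPC mice, 5.44 ± 2.33 in FoxP1SkmKO control mice, and 6.29 ± 0.20 in FoxP1SkmKO KPC mice (SD, n = 2). WT control mice had their highest mean at CT26 instead (4.90 ± 1.41). The p of *Mt1* was 0.136 without CT38 and 0.0183 without the 2 libraries with hepatocyte markers (n = 40 and n = 46). Leaving out 1 mouse at a time gave p-values of 0.000994 to 0.0212 (n = 47), and 26 of these 48 fits missed the threshold of 0.01. On log2 CPM with each library's length trend removed, *Mt1* had p = 0.0029 and an adjusted p of 0.0123 (F test, n = 48). This fit covered only genes that passed the filter on low counts. Of 15637 such genes, 4762 (30.5%) had a p under 0.01. Shares and adjusted p-values of the fits on FPKM and on log2 CPM are thus over different genes and cannot be compared. On FPKM, *Mtf1* (p = 0.150) and *Slc39a14* (p = 0.0991) did not pass (F test, n = 48).

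Signals known to induce metallothioneins and ZIP14 were followed through lists of genes. The lists were chosen with earlier results of these data known, so counts of called genes in them are a description and not a test. Of 10 genes induced by IL-6 through STAT3, 6 were higher in WT KPC than WT control mice, against 1.16% of all genes, and none was lower. Their median log2 fold change was 0.56, and that of all genes was 0.00. *Bcl3*, an IκB-family co-regulator, rose from 0.62 ± 0.27 to 1.24 ± 0.35 FPKM (SD, n = 12; log2 fold change 1.04, adjusted p = 0.000367, edgeR). *Socs3*, the feedback inhibitor of the IL-6 receptor, rose from 0.90 ± 0.24 to 1.62 ± 0.57 FPKM (log2 fold change 0.81, adjusted p = 0.0227). The call of *Socs3* was lost without CT34 or CT38, and without any 1 of 5 mice, which were WT control mouse 1 at CT26, mouse 2 at CT30, and mouse 2 at CT38, and WT KPC mouse 1 at CT30 and mouse 2 at CT38 (adjusted p up to 0.0814). That of *Bcl3* held without each of the 48 mice. In FoxP1SkmKO mice, 4 of the 10 were higher, against 0.134% of all genes, with a median of 0.41. They were *Bcl3* (0.70), the interleukin-4 receptor *Il4ra* (0.53), the transcription factor *Cebpd* (0.50), and *Stat3* itself (0.22). That count was 0 without CT18, CT30, or CT38 or with limma on log2 FPKM, and 1 without the 2 libraries with hepatocyte markers. It was 0 to 6 on leaving out 1 mouse, and lower than 4 for 30 of the 48 mice. Neutrophil, fibroblast, and endothelial markers moved in the same WT comparison, and a fibroblast marker in that of FoxP1SkmKO mice, and their part in these counts was not tested. *Mt1*, *Mtf1*, and *Slc39a14* were not called in either comparison.

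**Figure D4:**
Log2 fold changes of KPC minus control averaged over 6 times (x axis), 1 point per gene, by list (y axis), in WT (left) and FoxP1SkmKO mice (right). Red points passed an adjusted p under 0.05, and bars are medians of the points drawn. In WT mice 6 of 10 IL-6/STAT3-induced genes passed, and none of *Mt1*, *Mtf1*, and *Slc39a14* did. *Slc30a3*, which had 0 reads in WT control mice, is not drawn.

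Of 10 glucocorticoid-induced genes, 1 was higher in WT KPC mice, against 1.16% of all genes, and the list's median was 0.15. It was the clock gene *Per1* (log2 fold change 0.61, adjusted p = 0.0159, edgeR). *Per1* missed the threshold without CT26 (0.39, adjusted p = 0.145) and without CT38 (0.56, adjusted p = 0.0557), and also without WT KPC mouse 2 at CT38 (adjusted p = 0.0505). None of the 10 was called in FoxP1SkmKO mice (median 0.20), and none of 6 oxidative stress genes was called in either genotype (medians 0.05 and 0.04). Over all genes, 1.79% were called in WT and 0.428% in FoxP1SkmKO mice, so no call in lists this small is near those shares. Of 8 iron and manganese genes, 2 were lower in WT KPC mice, against 0.627% of all genes. The transferrin receptor *Tfrc* fell from 36.3 ± 9.97 to 21.8 ± 7.13 FPKM (log2 fold change -0.76, adjusted p = 0.0207), and the divalent metal transporter *Slc11a2* fell from 5.72 ± 0.26 to 5.14 ± 0.38 FPKM (log2 fold change -0.16, adjusted p = 0.0450). The call of *Tfrc* was lost without CT30 or CT34, and that of *Slc11a2* without CT22, CT26, CT34, or CT38. Leaving out 1 mouse ended the call of *Tfrc* for 6 of the 48 mice (adjusted p up to 0.0639) and that of *Slc11a2* for 18 (up to 0.121). The 6 mice, without each of which neither gene was called, were WT control mouse 2 at CT18 and at CT30, and WT KPC mouse 1 at CT18, mouse 2 at CT26, mouse 1 at CT30, and mouse 2 at CT38. None of the 8 was called in FoxP1SkmKO mice. There *Tfrc* had a log2 fold change of -0.49 (adjusted p = 0.208, edgeR), and *Slc11a2* had 4.99 FPKM in control and in KPC mice. The KPC effect on *Tfrc* did not differ detectably between genotypes (WT minus FoxP1SkmKO -0.27, adjusted p = 0.885, edgeR). Of the other metallothioneins, the brain form *Mt3* was not called (log2 fold change 0.34 in WT mice) and *Mt4* was not tested.

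Between the genotypes in control mice, 3 of the 10 glucocorticoid-induced genes were higher in FoxP1SkmKO mice, against 1.86% of all genes. They were *Per1* (log2 fold change 0.75, adjusted p = 0.00123, edgeR), the phosphatase gene *Dusp1* (0.25, adjusted p = 0.0349), and the cell-cycle inhibitor *Cdkn1a* (0.79, adjusted p = 0.0219). This count fell for 15 of the 48 mice on leaving out 1 at a time, and to 1 without FoxP1SkmKO control mouse 2 at CT22. The kinase gene *Pim1* of the IL-6 list (0.49, adjusted p = 0.00128) was higher too, as was the quinone reductase gene *Nqo1* of the oxidative stress list (0.36, adjusted p = 0.0349), whose call was lost for 15 of the 48 mice. *Slc11a2* was lower (-0.20, adjusted p = 0.00504), as were 1.58% of all genes.

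For the KPC effect, 1.79% of all genes were called in WT mice and 0.428% in FoxP1SkmKO mice. None of the 19 tested zinc transporters was called in either genotype, which is near those shares. The median log2 fold change of the 19 was -0.02 in WT mice and 0.00 in FoxP1SkmKO mice. *Slc30a8*, *Slc30a10*, *Slc39a4*, and *Slc39a12* had too few reads to be tested. Between the genotypes, 2 of the 19 were called in control mice, where 3.44% of all genes were, both of them members of the exporter family. Of these, *Slc30a3* entered the 19 through its reads in FoxP1SkmKO mice, so its call is a description and not a test. *Slc30a2*, which loads zinc into vesicles, had 5.03 ± 0.98 FPKM in WT control mice (3.29 to 6.46, median 5.27) and 3.07 ± 0.90 in FoxP1SkmKO control mice (1.48 to 5.19, median 3.0). Its log2 fold change was -0.72 (adjusted p = 0.00190, edgeR), and the 2 groups overlapped. In KPC mice *Slc30a2* had 4.09 ± 0.88 FPKM in WT and 3.34 ± 1.11 FPKM in FoxP1SkmKO mice and was not called.

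*Slc30a3* (chr5:31243450-31265581, minus strand), a vesicular zinc transporter known from glutamatergic neurons, had 0 reads in the 12 WT control libraries. It had 158 reads in 11 of the 12 FoxP1SkmKO control libraries (0 to 36 reads each, median 9.5). Against a limit of 3 reads over the WT control group, the FoxP1SkmKO control level was at least 52.5-fold higher (adjusted p = 0.00194, edgeR). *Slc30a3* passed the filter on low counts through the FoxP1SkmKO libraries, where it is high, so this p-value describes the difference and is not support for it. Among KPC mice, *Slc30a3* had 22 reads in 2 of 12 WT libraries and 141 reads in 10 of 12 FoxP1SkmKO libraries. Its level was 0.69 CPM in the summed FoxP1SkmKO KPC libraries and 0.11 CPM in the summed WT KPC libraries, and the genotype effect in KPC mice was not called. *Dnajc5g*, which overlaps *Slc30a3* on the other strand, had 2 reads in WT control and 69 in FoxP1SkmKO control libraries, in 11 of 12 of the latter. *Gm9924*, which lies within the span of *Slc30a3* on the other strand, had 0 reads in WT control and 11 in FoxP1SkmKO control libraries. In KPC mice *Gm9924* had 1 read in WT and 14 in FoxP1SkmKO libraries. Reads of these overlapping genes cannot be told apart without knowing whether counting used the strand. Without 1 mouse, FoxP1SkmKO control mouse 2 at CT26, the average over times could no longer be estimated for *Slc30a3* (adjusted p = 1.0), since both groups at that time were then at 0.

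**Figure D5:**
CPM (y axis) of *Slc30a2* and *Slc30a3* in each of 12 mice per genotype and condition (x axis), with bars at the mean. *Slc30a3* was at 0 in all 12 WT control and in 10 of 12 WT KPC libraries, and above 0 in 11 of 12 FoxP1SkmKO control and 10 of 12 FoxP1SkmKO KPC libraries.

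The genes that varied most like each member over the 48 libraries are given as a description, by Pearson's r of log2 CPM among 12632 genes. For *Mt1* they were the lipid-droplet coat gene *Plin3* (r = 0.67), the interleukin-15 receptor *Il15ra* (0.67), *Sh3bgrl3* (0.61), the MYC partner *Max* (0.60), and the adhesion receptor *Adgrg1* (0.60). With the length trend removed these 5 had r of 0.59 to 0.66. For *Mtf1* they were *Zfp526* (0.77), *Zmiz1* (0.75), *Hectd4* (0.74), *Srrm2* (0.74), and *Spen* (0.74), 4 of them 12523 to 16443 bases long, and with the length trend removed r was 0.60 to 0.64. For *Slc39a14* they were *Mlxip* (0.62), *Dnase1* (0.60), *Atg9a* (0.60), *Slc35e1* (0.59), and *Pkd1* (0.59), and 0.39 to 0.57 with the trend removed. Neither *Mtf1* nor *Slc39a14* was among the leading genes of *Mt1*, with r of 0.05 for both, and 0.17 and 0.13 with the trend removed. *Mtf1* and *Slc39a14* had r = 0.49 with each other, and 0.34 with the trend removed. All these libraries share genotypes, times, and the length trend.

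Within groups of 12 mice, the members were also correlated with each other on log2(FPKM + 1), and none of 24 correlations passed the adjustment. Of these, 12 pair *Mt2*, which is at 0 in most libraries, with another gene, and they are not described. *Mtf1* and *Slc39a14* had r = 0.72 and Spearman's rho = 0.69 in WT control mice (adjusted p = 0.138 and 0.136, permutation test with 100000 resamples). Without the 2 mice farthest from the median of *Mtf1*, r was 0.35, so the relation rests on those mice. They are the 2 mice at CT26 whose libraries stood apart by gene length, and the part of that trend in r was not tested. *Mt1* and *Mtf1* had r = 0.65 and rho = 0.70 in FoxP1SkmKO KPC mice (adjusted p = 0.138 and 0.136, permutation test), and r = 0.58 without the 2 farthest mice. Adjusted over the 12 correlations without *Mt2*, a choice made after the data were seen, the lowest adjusted p was 0.105 for r and 0.102 for rho (permutation test). In the other 3 groups, r of *Mt1* and *Mtf1* was -0.48, -0.19, and -0.36.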

How the data were processed

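Poly(A) RNA of TA muscle was sequenced from 48 mice. The submitters' processing notes name HISAT2 2.0.5, whereas the study's methods name STAR and HTSeq, so the aligner behind the files is not settled. The authors deposited whole-number read counts per gene (mm39) for each comparison and FPKM for all libraries, normalized by gene length and library size. Whether counting used the strand is not given in the sources used here. The tables also hold size-factor-normalized values and the authors' DESeq2 1.20.0 fold changes and p-values, which were not used. Genes absent from a comparison's count table had their reads taken back from FPKM, which gave whole numbers.

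Counts were tested in R 4.3.3 with edgeR 4.0.16 (TMM, filterByExpr, quasi-likelihood, 1 coefficient for each of 24 groups of 2 mice), with Benjamini-Hochberg adjustment over 15637 genes and a threshold of 0.05. The 95% intervals are from the same fit, and replicates were separate mice per the study's methods. Rhythms were fitted to FPKM in Python 3.11.15 (numpy 2.4.6, scipy 1.17.1, pandas 2.3.3) as sinusoids of 24 h with an F test. The length trend is a lowess fit (span 0.3) of each library's log2 CPM deviations on gene length. Alternatives used DESeq2 1.42.0, limma 3.58.1 on log2(FPKM + 1), other filters and scalings, and left-out mice and times. Scripts were tested on simulated data. Reads of sequenced libraries are not independent molecules, so the limit of 3 reads for a group at 0 covers counting error only.

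The members and lists were chosen with earlier results of these data known. Named besides the 4 members were, from each list, up to 2 called genes with the largest rise and fall in WT KPC mice, all called zinc transporters, the 5 genes most like each member, and *Foxp1*. Genes called in FoxP1SkmKO KPC mice, or between genotypes outside the zinc transporters, called cell type markers, and the genes overlapping *Mt2*, *Mtf1* and *Slc30a3* were named after their values were seen.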

Additional observations from a re-analysis of the deposited data

How the results depend on the processing

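Direction and call of the 3 tested genes were recomputed under each alternative, and 1118 such values kept both, 37 missed the threshold, 22 changed sign, and 1 newly passed. The exceptions that concern *Mtf1* at CT26 in WT mice all had the same direction. Its adjusted p rose to 0.0596 with no filter on low counts (log2 fold change 0.42), to 0.0986 with only the 4 libraries of that time fitted (0.44), and to 0.164 with the trend on gene length removed (0.27). Leaving out 1 of the 4 mice gave 0.34 to 0.51, with adjusted p-values of 0.0140 to 0.294. The number of calls at single times was thus 0 with 4 libraries and 0 with the trend removed, and 0 to 1 on leaving out 1 mouse. Removing the trend and leaving out the libraries with hepatocyte markers were chosen after seeing the data. So were the comparisons at CT26 other than the KPC effect.

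Changes of sign were confined to uncalled values near 0. The *Mt1* difference of the KPC effect between genotypes became -0.0017 without CT30 and -0.0093 without CT38, and that of *Mtf1* became -0.043 without CT26. For *Slc39a14*, the KPC effect in FoxP1SkmKO mice became -0.0063 without the libraries with hepatocyte markers, -0.0014 without CT22, and -0.0072 without CT38. Its genotype effect in control mice became -0.011 with the trend removed, -0.011 without CT26, and -0.0041 without CT30. Leaving out 1 mouse gave -0.012 to 0.14 for that *Mt1* difference, and for *Slc39a14* -0.019 to 0.046 for the KPC effect in FoxP1SkmKO mice, -0.016 to 0.048 for the genotype effect in control mice, and -0.12 to 0.0068 for that in KPC mice.

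Counts over all genes moved more, and the cause was not tested. The counts with no filter, here and below, come from a fit with other standard errors at nearly the same fold changes. For the KPC effect in WT mice, the standard error of *Tfrc* was 0.041 with no filter, against 0.175 in the main fit and 0.194 with DESeq2. That of *Mtf1* was 0.055 with no filter, against 0.044 in the main fit. Those counts are therefore not read as further responding genes. For the KPC effect in WT mice, 280 calls became 794 with no filter, 166 and 173 with limma at pseudocounts of 1 and 0.1, and 132, 127, and 110 without CT26, CT30, and CT34 (75 to 412 without 1 mouse). In FoxP1SkmKO mice, 67 became 527 with no filter, 161 with DESeq2, 22, 20, and 22 with limma at pseudocounts of 1 and 0.1 and at a mean FPKM of at least 1, and 0, 182, 12, and 6 without CT18, CT22, CT30, and CT38 (17 to 226 without 1 mouse). The difference between genotypes went from 0 to 104 with no filter and 1 without CT38 (0 to 4 without 1 mouse). The genotype effect in control mice went from 538 to 933 with no filter, 303 without CT18, and 301 without CT38 (299 to 755 without 1 mouse). In KPC mice, 50 became 470 with no filter, 116 with DESeq2, 28, 28, and 33 with the 3 limma fits, 30 without the libraries with hepatocyte markers, and 19, 124, 0, 13, and 16 without CT18, CT22, CT30, CT34, and CT38 (17 to 198 without 1 mouse). In WT mice at CT26, 1121 became 403 with the trend removed and 345 with 4 libraries (86 to 1361 without 1 mouse).

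The count of zinc transporters called was 1 with no filter for the KPC effect in WT mice, and for the genotype effect in control mice it was 1 with limma at a mean FPKM of at least 1, 1 with DESeq2, and 1 to 2 without 1 mouse. Of the IL-6/STAT3 list in FoxP1SkmKO mice, 8 were called with no filter, 0 in each of the 3 limma fits, 1 without the libraries with hepatocyte markers, 0 without CT18, CT30, or CT38, and 0 to 6 without 1 mouse. In WT mice that list had 5 to 8 calls without 1 mouse. Among members, 1 rhythm test passed with edgeR's F test of any difference between times in place of 0, and the difference in rhythm gave 0 to 1 calls without 1 mouse. The shared sinusoid of *Slc39a14* had p = 0.00881 without CT38 (n = 40).

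With the replicate number as a block, 271 genes were called for the KPC effect in WT mice, 71 in FoxP1SkmKO mice, and 1 for the members at single times, and the block changed no call of a member. Replicate numbers are shared by name only, since deviations of same-numbered mice had a median r of -0.004 over 276 pairs of groups (-0.324 to 0.234). Fits without 1 mouse assume that the remaining mouse of its group varied like the other groups, and they used the dispersion trend of all libraries. The ratio of *Mt1* to *Mt2* was not run, because *Mt2* was at 0 in 36 of 48 libraries. With 43 to 175 reads per library, *Mt1* is the least precisely counted of the 3 genes.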
